A study of Mus musculus with 14 samples.

Results

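Neurofilaments and microtubules give a motor axon its calibre and its tracks for transport, and 9 genes that encode their subunits and binding proteins are described here in mouse spinal cord. They were taken by symbol and are 9 of the 19215 genes with an RNA value in whole spinal cord (WSC): the neurofilament subunits *Nefl*, *Nefm* and *Nefh*, the related intermediate filament genes *Ina* (alpha-internexin) and *Prph* (peripherin), and the microtubule-associated genes *Mapt* (tau), *Mtap1a*, *Mtap1b* and *Mtap2*. The last 3 symbols are the names the files use for *Map1a*, *Map1b* and *Map2*. Of 13189 listed cassette exons, which are exons that a transcript can include or skip, 11 entries belonged to these genes: 10 to *Mapt*, 1 to *Mtap2* and none to the other 7.

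The RNA-seq libraries came from WSC of 1 male and 1 female 12-week-old mouse on a B6/SJL background, labelled SOD1 WT, with the genotype Tg(SOD1)2Gur/J. The paper describes these mice as SOD1 WT transgenic. HITS-CLIP sequences the RNA fragments crosslinked to a protein, here the neuronal splicing factor NOVA. There were 8 motoneuron (MN) CLIP libraries, 4 from each of the hemizygous Chat:GFP-Nova lines 6 and 17, at 3 months of age on C57BL/6. In these mice a BAC with the *Chat* promoter drives GFP-tagged NOVA2 in cholinergic cells, cords of several mice were pooled, and the tag was precipitated with antibodies to GFP. The 4 WSC CLIP libraries came from wild type C57BL/6 mice of 3 months. They used an antiserum against NOVA itself, on endogenous NOVA1 and NOVA2. Cell type, antibody, form of NOVA, transgene and pooling therefore cannot be told apart in any difference between MN and WSC.

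Neurofilaments are built from light, medium and heavy chains (*Nefl*, *Nefm*, *Nefh*) that assemble with alpha-internexin in central neurons and with peripherin in neurons that project to the periphery. Tau lies mainly along axonal microtubules, the *Mtap2* protein mainly in dendrites, and the *Mtap1a* and *Mtap1b* proteins in both. NOVA binds the RNA tetramer YCAY, in which Y is C or T, and controls splicing from introns and exons as well as binding 3′ UTRs. In the mm9 genome with GENCODE vM1, *Nefl* spans chr14:68701920-68707152 (+) and *Nefm*, with a long transcript that reaches past it on the other strand, chr14:68700647-68742903 (-). *Nefh* lies at chr11:4838757-4848067 (-), *Ina* at chr19:47089188-47099817 (+), *Prph* at chr15:98885605-98889409 (+) and *Mapt* at chr11:104092704-104193404 (+). *Mtap1a* lies at chr2:121115336-121136568 (+), *Mtap1b* at chr13:100191419-100286557 (-) and *Mtap2* at chr1:66221847-66489157 (+).

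The male RNA-seq library held 72006019 reads on genes and the female library 65625173, of which the 9 genes took 1.52% and 1.62%. The CLIP libraries held 65961 to 871804 unique reads in MN and 2213104 to 6095995 in WSC, so MN values rest on far fewer reads. Of the MN reads in genes, 52.3 to 64.7% lay in introns, against 33.8 to 39.1% of the WSC reads. Motoneuron markers were higher in MN CLIP for 4 of the 4 tested, among them *Chat* by 3.08 on the log2 scale, and interneuron markers were lower for 7 of the 7 tested (edgeR quasi-likelihood test, false discovery rate (FDR) ≤ 0.01). Of all 4610 genes tested, 27.4% were called higher in MN and 29.1% lower. In the RNA, 8 of 8 sensory neuron markers and 4 of 5 Schwann cell markers had a mean under 1 RPKM (reads on a gene scaled to its exon length and to the library's size), the exception being *Mal*. In CLIP, astrocyte markers were lower in MN for 4 of the 4 tested with all reads and for 0 of 4 with exonic reads, oligodendrocyte markers for 1 of 3 and 0 of 3, and of 6 pan-neuronal markers 1 was higher and 2 were lower with all reads. No marker of microglia or endothelial cells passed the filter on low CLIP counts.

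The neurofilament chains were the most abundant of the 9 genes in WSC RNA, per length of exon. *Nefl* stood at 1283 RPKM in the male and 1598 in the female library (mean 1440.1 ± 223, SD, n = 2), which put it at rank 7 of the 19215 genes. *Nefm* had 845 and 1027 RPKM (936 ± 129, rank 13). *Nefh*, the heavy chain whose long tail is phosphorylated in axons, had 362 and 433 RPKM (397.5 ± 49.998, rank 75). In both libraries the order was light, medium, heavy, and the ratio of *Nefl* to *Nefm* was 1.52 in the male and 1.56 in the female library, while that of *Nefl* to *Nefh* was 3.54 and 3.69.

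The other intermediate filament genes were lower. *Ina* had 134 and 117 RPKM (126 ± 12.0, rank 409). *Prph*, at 49.6 and 51.3 RPKM (50.4 ± 1.22, rank 1337), was the lowest of the 9 genes in each library. Among the microtubule-associated genes *Mtap1b*, which is prominent in growing axons, led with 281.5 and 282.3 RPKM (281.9 ± 0.533, rank 113), followed by *Mtap1a* with 243 and 197 RPKM (220.1 ± 32.2, rank 174). *Mtap2* had 119 and 130.4 RPKM (125 ± 8.335, rank 418), and *Mapt* 90.8 and 87.7 RPKM (89.3 ± 2.21, rank 654). Along the order of the 9 genes, only the neighbours *Ina* and *Mtap2* overlapped between libraries.

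**Figure D1:**
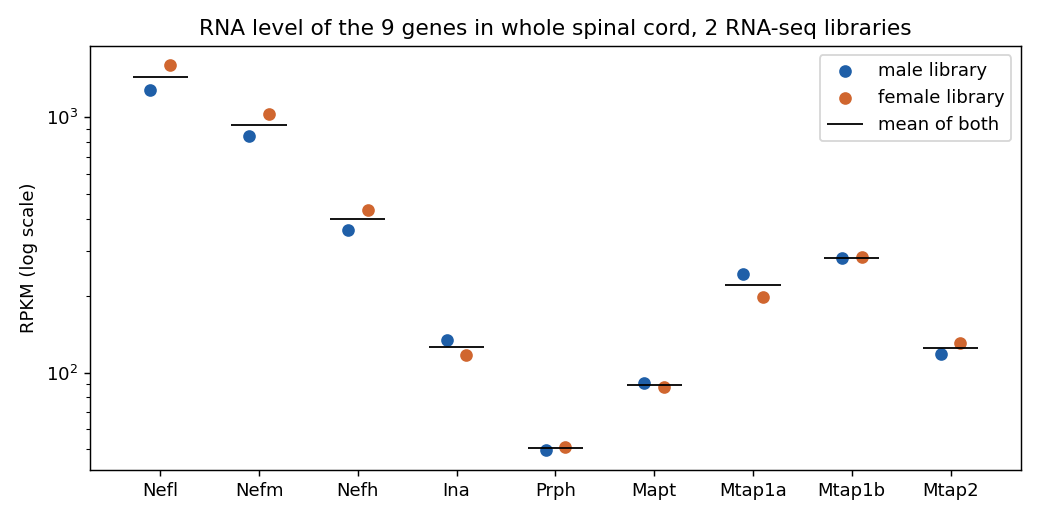
RPKM of each of the 9 genes on a log axis, 1 point for each of the male and female WSC RNA-seq libraries, with a bar at their mean. *Nefl*, *Nefm* and *Nefh* lie highest, from 362 to 1598 RPKM, and *Prph* lowest, at 49.6 and 51.3 RPKM.

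None of the 9 genes differed by 1.5-fold or more between the libraries, where 3.92% of the 11940 genes with a mean of at least 1 RPKM did. *Nefl*, *Nefm* and *Nefh* were all lower in the male library, with male to female ratios of 0.803, 0.823 and 0.837, and *Mtap1a* was higher there, with a ratio of 1.23. With 1 library for each sex there was no test of this difference, and sex, animal and library cannot be told apart. Motoneuron markers moved the same way as the chains: 9 of 9 were higher in the female library, with a summed level of 145 RPKM in the male and 212 in the female, and the lowest of them, *Isl1*, had 0.655 RPKM on average. The part of these markers in the neurofilament values was not tested. In tissue RNA, fewer cells of a type and less RNA per cell cannot be told apart.

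Genes of the same systems gave a setting for these levels. The glial filament gene *Gfap* had 500.4 ± 32.4 RPKM (SD, n = 2), between *Nefm* and *Nefh*, and *Vim* 41.4 ± 19.9. Of the linker and turnover genes, the ubiquitin hydrolase gene *Uchl1* had 782 ± 40.1 RPKM, *Nudc* 105.8 ± 0.929 and the linker gene *Dst* 61.4 ± 0.700. The stathmin genes *Stmn3* and *Stmn4*, whose proteins bind free tubulin, had 606 ± 1.52 and 214 ± 9.86 RPKM, and *Mtap7d2* had 131 ± 1.93. Of 12 tubulin genes with a value, *Tubb4* (689 ± 58.6 RPKM), *Tuba1a* (408 ± 1.71) and *Tubb3* (303 ± 4.43) were highest.

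*Nefl* was highest and *Prph* lowest of the 9 genes both by RNA and by exonic WSC CLIP reads scaled to exon length, but the order between them differed. Without that scaling *Mtap1b* led, with 81308 exonic WSC reads beside 25507 for *Nefl*. To set both on a length scale, WSC reads in exons were scaled like RPKM, to a length and to the CLIP reads in genes. They were ranked among 10983 genes with at least 1 RPKM. The length was the exon length of the RNA values, 2001 nt for *Nefl*, while CLIP reads were counted in GENCODE exons. These lengths can differ, so the units, ranks and ratios depend on the length used. *Nefl* had 911 such units (rank 2), *Ina* 495 (rank 16), *Mtap1b* 446 (rank 20), *Mtap2* 291 (rank 39) and *Mtap1a* 194 (rank 91). *Nefm*, at rank 13 of all genes by RNA, had 92.6 units (rank 247), *Mapt* 45.6 (rank 622), *Nefh* 14.5 (rank 1975) and *Prph* 1.54 (rank 6550). Divided by RPKM, the CLIP level was 3.94 for *Ina*, 2.34 for *Mtap2*, 1.58 for *Mtap1b*, 0.881 for *Mtap1a*, 0.633 for *Nefl* and 0.511 for *Mapt*, all above the median of 0.25 over the 10983 genes, and 0.0989 for *Nefm*, 0.0364 for *Nefh* and 0.0306 for *Prph*, below it. These ratios join CLIP and RNA of different mice and carry no test.

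The sites with the most CLIP reads were looked up in each gene, once by the mean WSC and once by the mean MN coverage. In 3 genes, *Nefl*, *Mtap1b* and *Mtap2*, both gave the same site within 15 nt. Of the 15 separate sites, 9 lay in a 3′ UTR and 14 held a YCAY tetramer in a window of 30 nt. Of all 30-nt windows in the spans of the 9 genes 37.9% held one, and of windows centred in exons 35.6%. A match describes the letters only. The windows are shown for the genes in which the leading site was shared, once each, and for those in which it differed, except *Prph*, which had 7 MN and 44 WSC reads in all. The window that led in MN in *Nefh*, from 20 reads, is the 1 without a tetramer. Sequences are from the mm9 genome, read 5′ to 3′ on the strand of the gene, and capitals mark each YCAY tetramer, overlapping ones included, searched on that strand.
Nefl 3′ UTR, chr14:68705829-68705858 (+), leading in MN: tTCACtaatgtTCATgtgcaaccTCATggg
Mtap1b 3′ UTR, chr13:100191866-100191895 (-), leading in WSC: TCATttcaaggcagcatcaaaaaactgaaa
Mtap2 coding exon, chr1:66485683-66485712 (+), leading in WSC: taattTCATcccccaactgtagtaattgtt
Mtap1a coding exon, chr2:121124675-121124704 (+), leading in WSC: aaactccTCATcttgagtggacaaacttta
Mtap1a 3′ UTR, chr2:121134583-121134612 (+), leading in MN: ttcttcTCATcccctgcttggcttctctgc
Ina 3′ UTR, chr19:47098999-47099028 (+), leading in WSC: agcattTCACtttaactgtagaagcacggt
Ina 3′ UTR, chr19:47098804-47098833 (+), leading in MN: CCATtTCATgtccttTCACatctgtagctt
Nefm coding exon, chr14:68739379-68739408 (-), leading in WSC: cacattttcaggaagcaTCACcgggcctct
Nefm coding exon, chr14:68738100-68738129 (-), leading in MN: cacgCCATagtcaaggaagTCACccagggt
Nefh coding exon, chr11:4841311-4841340 (-), leading in WSC: tccctCCATatCCACgcacataaaagtcaa
Nefh 3′ UTR, chr11:4839086-4839115 (-), leading in MN: tgatagcttcttgtagccgaacgtgatgta
Mapt 3′ UTR, chr11:104192960-104192989 (+), leading in WSC: ctaTCACctctggattgacctcagatCCAT
Mapt 3′ UTR, chr11:104190698-104190727 (+), leading in MN: cgtccgtacaTCACgtcTCACtgtcctgag

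The *Nefl* window, with 3 tetramers, was covered by 17.5% of all *Nefl* CLIP reads in MN (555 reads) and 15.7% in WSC (4014 reads). The range over libraries was 10.6 to 19.1% in MN and 14.6 to 20.1% in WSC, so the groups overlapped. The overlapping *Nefl* window that led in WSC, not shown, held 1 tetramer. It was covered by 16.9% of the MN reads (535 reads) and 16.1% of the WSC reads (4111 reads). The *Mtap1b* window held 9.34% of the MN and 12.2% of the WSC reads of that gene, and the *Mtap2* window 5.61% and 6.04%.

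In *Mtap1a* the leading site differed between the groups. The coding site, which was chosen for its WSC height, held 19.3% of the WSC reads of the gene, 18.2 to 21.6% in single libraries, and 4.00% of the MN reads, 1.89 to 5.29%. The 3′ UTR site, chosen for its MN height, held 19.3% of the MN reads (15.2 to 25.5%) and 14.7% of the WSC reads (13.3 to 15.5%). The *Ina* site that led in WSC held 15.8% of WSC and 9.06% of MN reads, and the one that led in MN 9.76% and 17.3%. The *Mapt* site in the 3′ UTR held 12.0% of the WSC but 2.01% of the MN reads, the latter from 8 reads. Because each site was picked as the highest of one group, these shares are a description, with no test.

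**Figure D2:**
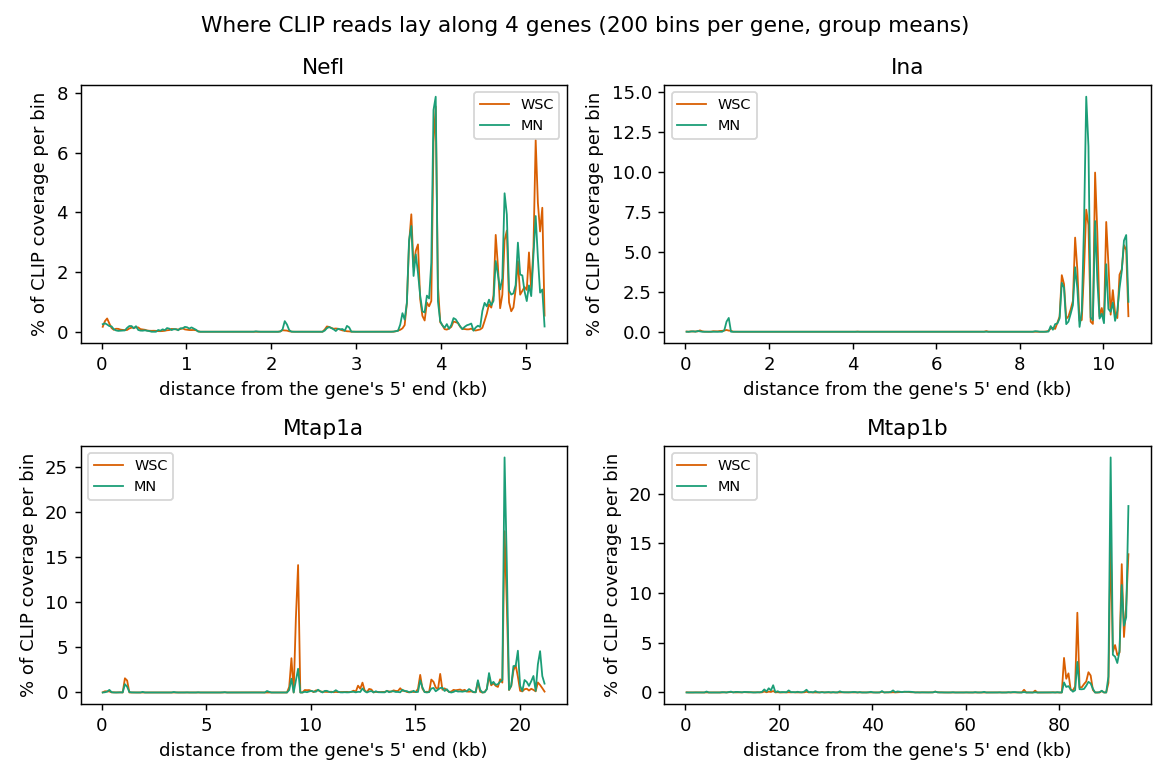
CLIP coverage along 4 genes, as percent of the coverage of the gene in each of 200 bins, averaged over the 8 MN and the 4 WSC libraries, against distance from the 5′ end of the gene in kb. In *Nefl*, *Ina* and *Mtap1b* most coverage lies near the 3′ end in both groups, and *Mtap1a* has an inner coding peak that is high in WSC and low in MN.

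The number of CLIP reads on each gene was compared between MN and WSC with all reads in the gene span. Counts were scaled to the reads in genes of each library (CPM, with TMM factors). The paper states that transcript level affects CLIP signal. No RNA level of motoneurons was used here, so transcript level and binding per transcript cannot be told apart. Of the 8 genes with enough reads for the test, *Nefh* was higher in MN, where 27.4% of the 4610 genes tested were called higher, and *Ina* and *Mtap1a* were lower, where 29.1% were called lower (edgeR quasi-likelihood test, FDR ≤ 0.01). The other 5 were not called. Beside these members the interneuron markers fell and the motoneuron markers rose, as given above, and their part in the values was not tested.

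*Nefh* had 75.0, 60.8, 62.5 and 69.5 CPM in the WSC libraries, and in MN 58.2 CPM at the lowest, 111 at the median and 143 at the highest. All but 1 of the MN libraries lay above every WSC library. Its log2 fold change was 0.82 (SE 0.15, edgeR FDR 4.43e-05), from 175 MN and 913 WSC reads. *Ina* had 1118, 1205, 1098 and 1186 CPM in WSC, and 364, 483 and 605 CPM as the lowest, median and highest MN value. Every MN library lay below every WSC library, and the log2 fold change was -1.26 (SE 0.10, edgeR FDR 6.85e-11).

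*Mtap1a* had 2521.5, 2178, 2200.4 and 2660.1 CPM in WSC against 1482, 1718.5 and 2577 CPM at the lowest, median and highest in MN. One MN library, replicate 3 of line 17, lay within the WSC range, and the others below it. The log2 fold change was -0.44 (SE 0.12, edgeR FDR 0.0019), and with line 17 as the only MN line it was not called (-0.45, edgeR FDR 0.0289). *Mapt* had 341, 343, 335 and 324 CPM in WSC and 224, 260.2 and 404 CPM as the lowest, median and highest in MN, where 6 of the 8 libraries lay below the WSC range. It narrowly missed the threshold (log2 fold change -0.29, SE 0.10, edgeR FDR 0.0126), and it was called lower when replicate 3 of line 6 (edgeR FDR 0.00446) or replicate 1 of line 17 (edgeR FDR 0.00338) was left out, by DESeq2 (FDR 0.00452), and in edgeR with RLE size factors (FDR 0.00498) or with no filter on low counts (FDR 0.000209). With the replicate number as a block its edgeR FDR was 0.0646, and without replicate 4 of line 17 it was 0.0884.

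The remaining members differed little with all reads. *Nefl* had 1942, 1760.1, 1712 and 2102 CPM in WSC and 1405, 2098 and 2676 CPM as the lowest, median and highest in MN (log2 fold change 0.17, SE 0.11, edgeR FDR 0.172). *Nefm* had 321, 294, 267 and 375 CPM in WSC and 128, 290.3 and 366 CPM in MN (-0.10, SE 0.13, edgeR FDR 0.495). *Mtap1b*, with the most reads of the 9 genes, had 6262.5, 5788, 5564 and 6923 CPM in WSC and 5024, 7009 and 8693 CPM in MN (0.18, SE 0.12, edgeR FDR 0.156). *Mtap2* had 3037, 2810.0, 2857 and 3177 CPM in WSC and 2704, 3169 and 3348 CPM in MN (0.07, SE 0.10, edgeR FDR 0.535). For these 4 genes the MN range spanned or overlapped the WSC range. *Prph* had 7 MN and 44 WSC reads in all and did not pass the filter on low counts.

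**Figure D3:**
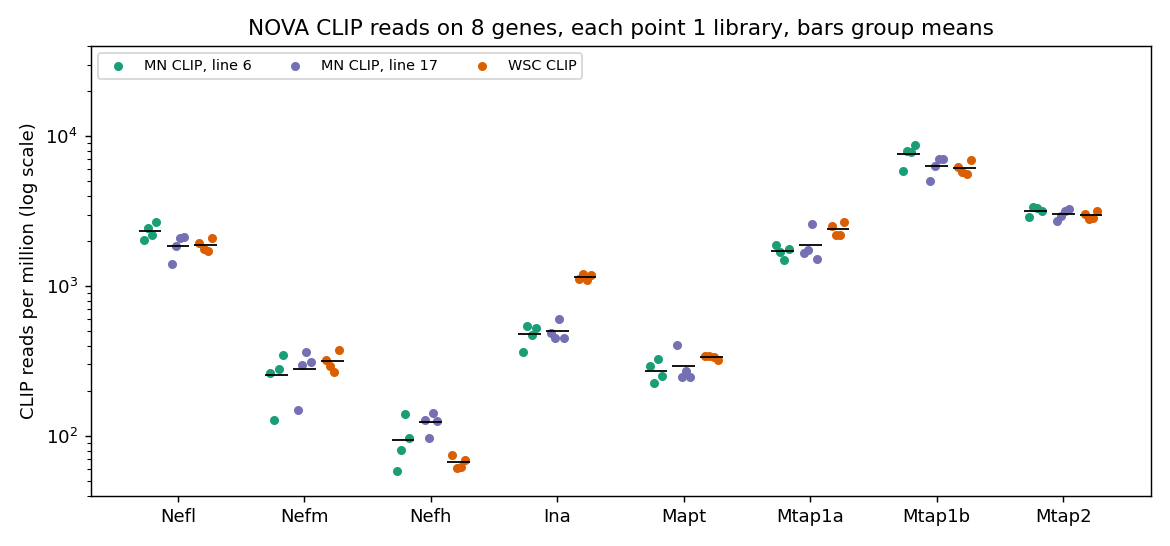
CLIP CPM on a log axis for the 8 tested genes, 1 point per library, coloured by line 6 MN, line 17 MN and WSC, with bars at the group means. *Ina* is the gene whose 8 MN points, up to 605 CPM, all lie below its 4 WSC points, which start at 1098 CPM.

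These values depended on which reads were counted and on the total they were scaled to. MN libraries held a larger share of intronic reads, and genes such as *Nefl* and *Ina* have almost none. The comparison was therefore repeated with exonic reads alone, scaled to exonic totals. *Nefl* kept 3172 of 3173 MN and 25507 of 25514 WSC reads, and *Ina* 694 of 695 and 16110 of 16114. For these genes it was thus mainly the scale that changed. With exonic reads 4 of the 8 members were higher in MN, where 23.0% of 2333 genes were, and 1 was lower, where 24.0% were (edgeR, FDR ≤ 0.01). *Nefl* was then higher by 0.93 (SE 0.14, edgeR FDR 5.47e-06), with 2862, 2721, 2755 and 3136 exonic CPM in WSC and 2661, 4780.0 and 5716 as the lowest, median and highest in MN. *Nefh* was higher by 1.69 (SE 0.18, edgeR FDR 4.76e-08), with 80.9 to 101 exonic CPM in WSC and 98.7 to 318 in MN. *Mtap1b* was higher by 0.88 (SE 0.14, edgeR FDR 1.73e-05), and *Nefm* by 0.52 (SE 0.14, edgeR FDR 0.00319), a direction opposite to its value with all reads.

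*Ina* remained lower with exonic reads alone, at -0.49 (SE 0.11, edgeR FDR 0.000633), with 822.5 to 1301 exonic CPM in MN and 1648 to 1863 in WSC. *Mtap1a*, called lower with all reads, had an exonic log2 fold change of 0.32 (SE 0.13, edgeR FDR 0.0457), above 0 but not called. In separate fits, each scaled to its own read class, its 3′ UTR reads were higher (0.95, edgeR FDR 2.13e-06) and its reads in other exons lower (-0.65, edgeR FDR 0.00127). In a single fit of all regions these log2 fold changes were 0.37 and -1.80. *Mtap2* (0.25, edgeR FDR 0.0796) and *Mapt* (-0.02, edgeR FDR 0.907) were not called either. With intronic reads alone, which sufficed for 3 members, *Mtap1b* was higher by 0.90 (SE 0.11, edgeR FDR 9.89e-08) and *Mtap2* by 0.80 (SE 0.08, edgeR FDR 4.89e-10), and *Mapt* was at -0.11 (SE 0.14, edgeR FDR 0.592). Of the 8 members, *Nefh* was called higher and *Ina* called lower both with all reads and with exonic reads.

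**Figure D4:**
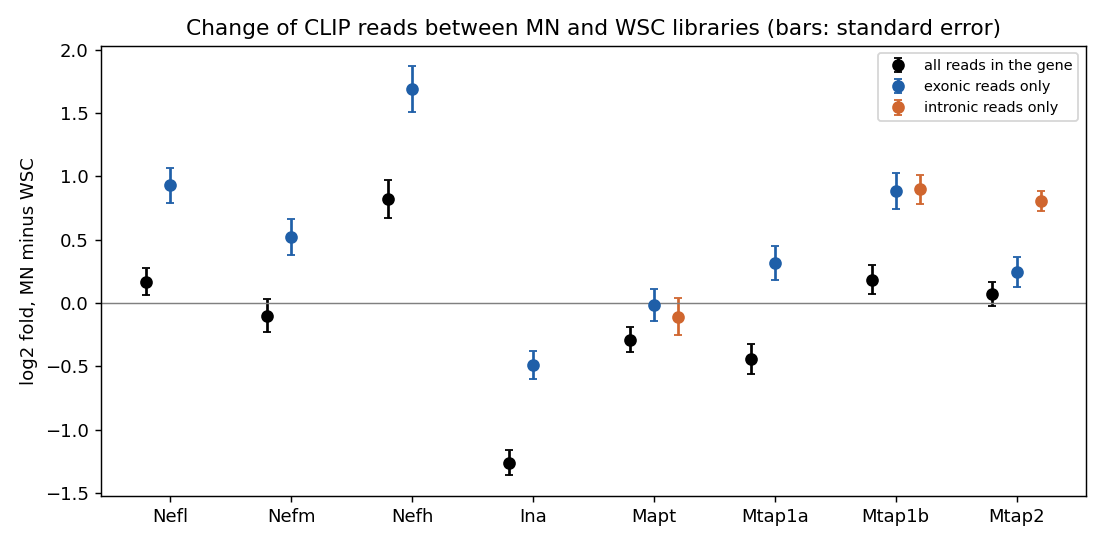
Log2 fold change of CLIP reads, MN minus WSC, for the 8 tested genes, with all reads in the gene, exonic reads only and intronic reads only, and bars of 1 standard error. *Nefh* lies above 0 and *Ina* below 0 with all and with exonic reads, while *Mtap1a* goes from -0.44 to 0.32 and *Nefm* from -0.10 to 0.52.

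Between the transgenic lines 17 and 6 no gene was called (edgeR, FDR ≤ 0.01), with 220 genes at an unadjusted p under 0.05, and DESeq2 called 1. The members ranged from -0.30 for *Nefl* (SE 0.14, edgeR FDR 0.968) to 0.14 for *Nefh* (SE 0.25, edgeR FDR 0.9998) on the log2 scale, line 17 minus line 6.

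The position of the reads within each gene was compared next, as the change of a region relative to the change of its whole gene (edgeR diffSpliceDGE, FDR ≤ 0.1). Of 16 regions of the members that were tested, 11 were called, beside 79.0% of all 3033 regions, so the count follows the background. All 3 tested introns, those of *Mtap2* (1.09, edgeR FDR 4.55e-18), *Mtap1b* (1.08, edgeR FDR 3.72e-19) and *Mapt* (0.70, edgeR FDR 5.49e-08), were higher in MN relative to their gene, as were 85.9% of all introns. Introns held 42.7% of the *Mtap2* reads in MN, 35.4 to 52.0% in single libraries, and 14.9% in WSC, 13.4 to 16.1%. In *Mapt* they held 44.4% of MN and 22.1% of WSC reads, and in *Mtap1b* 6.32% and 2.36%.

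Relative to their gene the 3′ UTRs were higher in MN in *Mtap1a* (0.53, edgeR FDR 4.49e-06), *Nefm* (0.45, edgeR FDR 0.00176) and *Nefh* (0.28, edgeR FDR 0.0689), where 4.22% of 1162 tested 3′ UTRs were higher and 65.7% lower. In these genes no intron entered the test, so their 3′ UTR was set against other exons alone. In *Mtap1a* the 3′ UTR took 77.6% of MN reads, 71.6 to 90.0% in single libraries, and 47.0% of WSC reads, 45.1 to 48.2%, while other exons took 21.6% and 52.7% and were lower in MN (-0.98, edgeR FDR 2.00e-13). No MN library overlapped a WSC library in either share. In *Nefm*, whose reads lay mostly in coding exons, the 3′ UTR took 31.5% of MN reads, 16.7 to 42.9% in single libraries, and 23.4% of WSC reads, 21.0 to 25.8%. In *Nefh* it took 61.1% of MN reads, 33.3 to 67.4%, and 46.7% of WSC reads, 40.8 to 50.2%, so in both genes the groups overlapped. The *Nefm* call was lost with line 6 as the only MN line (edgeR FDR 0.145). The *Nefh* call was lost with the replicate block (edgeR FDR 0.162), with line 6 (edgeR FDR 0.149) or line 17 (edgeR FDR 0.219) as the only MN line, and without replicate 2 of line 17 (edgeR FDR 0.112). No *Nefh* region entered the test without replicate 3 of line 6, without replicate 4 of line 17, or when any WSC library was left out.

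The 3′ UTRs of *Mtap2* (-0.32, edgeR FDR 0.00117) and *Mapt* (-0.39, edgeR FDR 0.000207) were lower in MN relative to their genes, and those of *Nefl* (-0.01, edgeR FDR 0.964) and *Mtap1b* (0.12, edgeR FDR 0.271) were not called. Other exons of *Mtap1b* (-0.82, edgeR FDR 1.86e-11) and *Mtap2* (-0.55, edgeR FDR 7.78e-08) were lower, as were 80.6% of all other exons. *Nefl* and *Ina* kept nearly all reads in the 3′ UTR in both groups, 94.5% in MN and 95.1% in WSC for *Nefl*, and 97.3% and 98.1% for *Ina*.

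Splicing could be measured in *Mapt* and *Mtap2*. The inclusion rate was a/(a + s), with a the average count of the junctions that join the exon to its neighbours and s the count of the junction that skips it, and all 11 entries had at least 10 junction reads in each library. Exon 10 of *Mapt*, which encodes the second of the repeats that bind microtubules, was included in 99.0% of the male library (95% Wilson interval 97.3 to 99.6) and 99.4% of the female (97.8 to 99.8). The matching exon of *Mtap2*, at chr1:66478101-66478193 and also coding, was included in 9.76% (7.46 to 12.7) and 16.1% (13.0 to 19.8).
Neither exon held a YCAY tetramer. The 200 nt before the exon held 4 in *Mapt* and 2 in *Mtap2*, and the 200 nt after it 5 and 4. Within 400 nt of the exon the highest CLIP coverage was 10 reads over all WSC libraries and 2 over all MN libraries for *Mapt*, and 18 and 1 for *Mtap2*, which is too few to compare the groups.

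The exons of the *Mapt* amino-terminal inserts, 2 and 3, had intermediate rates. Exon 2 (chr11:104148437-104148523) was included in 24.4% (18.7 to 31.2) of the male and 18.8% (13.1 to 26.3) of the female library when set against the junction from exon 1 to exon 4. This rate averaged the junction from exon 1 with the junction to exon 4 alone, which had 29 and 10 reads. It left out the 123 and 111 reads from exon 2 to exon 3, and is lower than with them. A second entry, set against the junction from exon 1 to the exon after exon 4, gave 100% and 90.9%, with 0 and 2 skipping reads. Of the reads leaving exon 1, 136 in the male and 108 in the female library went to exon 4 and 59 and 40 to exon 2, so 69.7% (63.0 to 75.8) and 73.0% (65.3 to 79.5) skipped both inserts. Of the reads leaving exon 2, 80.9% (73.9 to 86.4) and 91.7% (85.5 to 95.4) went on to exon 3 (chr11:104151222-104151308). More reads left exon 2 than entered it from exon 1, 152 against 59 in the male and 121 against 40 in the female library. Reads entering exon 4 came from exon 3 in 60.0 and 63.9%, from exon 1 in 32.9 and 33.0%, and from exon 2 directly in 7.02 and 3.06%, so the share that skipped both inserts was lower when read from exon 4 than from exon 1.
The sequences of the inserts are shown. Each holds 1 YCAY tetramer, in capitals, and some other *Mapt* exons hold more, as given below.
Mapt exon 2: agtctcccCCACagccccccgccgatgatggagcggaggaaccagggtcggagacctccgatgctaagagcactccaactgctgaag
Mapt exon 3: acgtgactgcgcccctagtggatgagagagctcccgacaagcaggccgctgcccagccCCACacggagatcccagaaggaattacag

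By junction reads the other *Mapt* exons had rates near 100% or near 0. Exon 4 was included in at least 99.0% of either library. Exon 6 (198 nt) was included in 0.581% of the male and 0.726% of the female library, and its short form of 97 nt in 0.465% and 0.292%. These rates rested on 1 to 4 reads per inclusion junction. They lay under the rate at 3 counts, 0.697 and 0.871% for exon 6 and 0.698 and 0.875% for the short form. Exon 8 (54 nt) was included in 5.06% (3.33 to 7.61) and 4.10% (2.50 to 6.65). A 97-nt exon at chr11:104182377-104182473, after exon 10, had 0 inclusion junction reads beside 220 and 214 skipping reads, so its rate was 0, with an upper Wilson limit of 1.72% in the male and 1.76% in the female library (1.36% and 1.40% at 3 counts, the limit a count of 0 allows). It had 16 and 8 exon body reads, which the junction rate does not count, and with body reads added its mean rate was 5.19%. Of the 11 entries 9 had a length divisible by 3, and the 97-nt exons did not. Exon 6 held 6 YCAY tetramers, its short form and the 97-nt exon after exon 10 held 2 each, and exons 4 and 8 held 0.

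**Figure D5:**
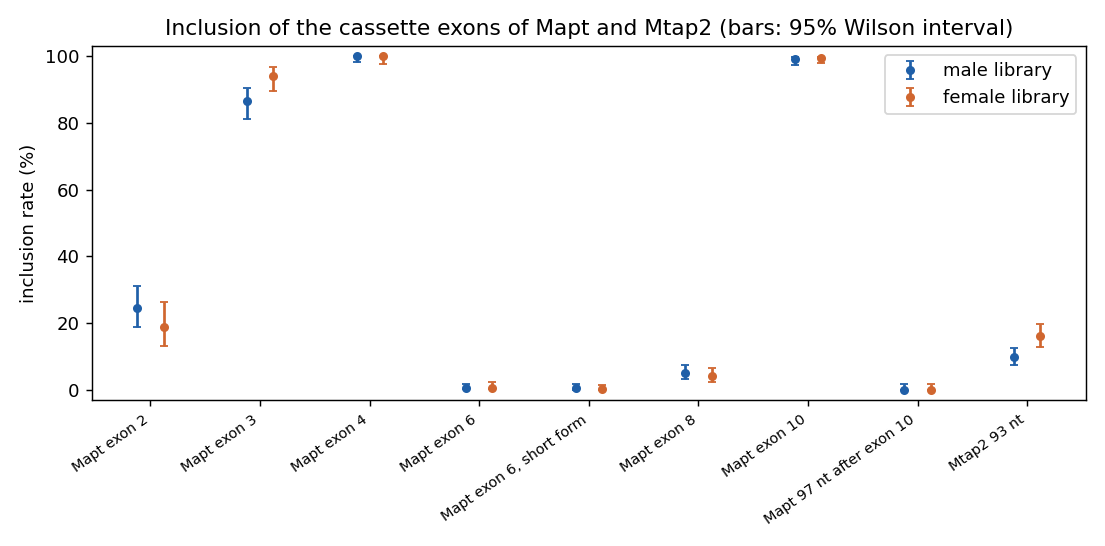
Inclusion rate in percent of the cassette exons of *Mapt* and *Mtap2* in the male and female WSC RNA-seq libraries, with 95% Wilson intervals for counting error. Exon 10 of *Mapt* lies at 99.0 and 99.4%, the 93-nt exon of *Mtap2* at 9.76 and 16.1%, and exon 2 of *Mapt* between them.

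Between the 2 libraries, 1 of the 11 entries differed in Fisher's exact test on inclusion and skipping reads, the *Mtap2* exon (FDR 0.0398, Benjamini-Hochberg over 9396 exons), where 4.26% of all tested exons did. It rested on 185 inclusion and 453 skipping reads in the male and 230.0 and 377 in the female library, and with junction reads alone it was not called (Fisher's exact test, FDR 0.196). The smallest FDR of the other 10 entries was 0.251, for *Mapt* exon 3. The test compares 1 library with another, not the sexes.

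The wider lists showed how other genes of these systems stood in the MN to WSC comparison of all reads (edgeR, FDR ≤ 0.01). Over all 4610 genes 27.4% were called higher and 29.1% lower, and the median log2 fold change was -0.02. Of 20 other microtubule-associated genes tested, 5 were higher and 3 lower in MN (median 0.10), with *Map6* (1.12, edgeR FDR 1.03e-06) and *Dclk2* (0.85, edgeR FDR 1.27e-05) among the former and *Tppp* (-1.54, edgeR FDR 4.35e-07) among the latter. Of 4 tubulin genes tested, none was higher and 3 were lower (median -1.27): *Tuba4a* (-1.64, edgeR FDR 1.77e-07), *Tubb5* (-1.51, edgeR FDR 6.78e-07) and *Tuba1b* (-1.03). With exonic reads 1 tubulin gene, *Tubb4*, was higher by 0.86 (edgeR FDR 1.61e-05) and 2 were lower, where 23.0% of 2333 genes were higher and 24.0% lower.

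Of 13 kinases and phosphatases of tau and neurofilaments tested, 3 were higher and 6 lower with all reads (median 0.09), beside 27.4% and 29.1% of all genes. The phosphatase subunit gene *Ppp2r2b* had the largest rise of this list (1.52, edgeR FDR 7.57e-11), and its exonic value was -0.18 (edgeR FDR 0.413). Of 5 spectrins and severing enzymes 1 was higher, *Spna2* (0.33, edgeR FDR 0.00699), and none lower (median 0.19). Of 5 linker and turnover genes, *Ndel1* was higher (0.36, edgeR FDR 0.00319) and *Macf1* lower (-0.32, edgeR FDR 0.00325), and of 2 other intermediate filament genes *Gfap* was lower (-0.77, edgeR FDR 0.000666), with an exonic value of -0.07 (edgeR FDR 0.798).

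Among the genes whose CLIP reads varied most like the mean of the 4 tested filament genes over the 12 libraries were *Cdc37l1* (r = 0.89), *Mtap7* (0.82), *Mbp* (0.81) and *Ppip5k2* (0.77), out of 1684 genes with at least 200 MN reads. The 12 libraries share depth and group differences, and the filament genes themselves varied little together: r ranged from -0.52 between *Nefh* and *Ina* to 0.29 between *Nefm* and *Ina*, and was 0.24 between *Nefl* and *Nefm*.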

How the data were processed

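The members and gene lists were chosen with earlier results of these data known. For CLIP, the authors deposited mm9 positions of unique reads in BED files, mapped with Novoalign per the labels, whose score column was not used. For RNA-seq, the authors trimmed the reads, mapped them to mm9 with OLego and counted unambiguous reads with Quantas, and deposited raw read counts and RPKM per gene and raw counts of exon body and junction reads per cassette exon. The strand setting of the RNA-seq counting is not given in the sources used here, and *Nefl* and *Nefm* lie close together on opposite strands. Reads that map to several places were removed.

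CLIP reads were assigned by strand and midpoint to gene spans of GENCODE vM1 on mm9, and reads in more than 1 gene were dropped. Genes were tested with edgeR 4.0.16 (TMM, filterByExpr, glmQLFit and glmQLFTest, 3 groups, mean of both lines minus WSC), regions with diffSpliceDGE, and exons with two-sided Fisher's exact tests (scipy 1.17.1) at 10 or more junction reads per library. Each script was tested on simulated data. Intervals cover counting error only. The p-values of edgeR measure the spread between libraries, and those of Fisher's exact tests, on 1 library each, measure counting error only. Named were all members, exons with 10 junction reads, and from each other list up to 3 genes by RPKM and by called fold change in each direction. Alternatives were DESeq2 1.42.0, other filters, scalings, read classes and sample sets. 1 gene and 1 exon sequence that these rules name are not reported here.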

Additional observations from a re-analysis of the deposited data

Results flagged for a closer look

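Among the 8 tested members in the 3 CLIP groups of 4 libraries, 24 sets of values, 1 value stood apart from its group. *Mapt* in line 17 had 246, 249, 270.4 and 404 CPM, and the highest, replicate 1, was separated from the next by 0.845 of the whole range, above Dixon's 95% critical value for 4 samples. That library had 19 *Mapt* reads. Chance alone gives about 1 such value in 20 groups. Without this library *Mapt* was lower in MN by an edgeR FDR of 0.00338, as given with its values.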

How the results depend on the processing

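All reads gave 1264 genes higher and 1340 lower in MN. The counts were 537 and 559 with exonic, 353 and 410 with intronic and 1023 and 2787 with unfiltered reads (median log2 fold change of all genes then -0.52), and, in alternatives added after the data were seen, 393 and 429 with 3′ UTR and 113 and 124 with other exon reads. The genes tested numbered 4610 with all, 2333 with exonic, 2772 with intronic, 18279 with unfiltered, 1778 with 3′ UTR and 561 with other exon reads. Against 1 member higher and 2 lower of 8 tested, exonic reads gave 4 and 1 of 8, and intronic reads 2 and 0 of 3. With 3′ UTR reads 5 and 1 of 8 were called, and with other exon reads 4 and 1 of 6. Line 17 as the only MN line gave 1 higher and 1 lower of 8. *Nefm* turned from -0.10 to 0.52 with exonic, 0.95 with 3′ UTR and 0.74 with other exon reads. *Mtap1a* turned from -0.44 to 0.32 with exonic and 0.95 with 3′ UTR reads, but was -0.65 with other exon reads (edgeR FDR 0.00127). Each read class was scaled to its own total, so both the reads counted and the scale changed. The cause was not tested beyond that. Leaving out 1 library gave 938 to 1394 genes higher and 955 to 1564 lower, 1 member higher throughout and 2 to 3 lower, 0 to 3 genes higher between the lines, 1704 to 3200 regions called against 2397, and 10 to 14 member regions against 11. Regions called were 6748 with 10 reads in 4 samples, 4316 with line 6 and 4790.0 with line 17. Exons called between RNA-seq libraries were 122 with junction reads alone against 400, and 0 of the members. The percent of genes at 1.5-fold or more between libraries was 10.1 over all genes with a read and 1.59 with a pseudocount of 1, against 3.92.

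Same-numbered libraries correlated at 0.161, 0.0467, 0.111 and 0.191 between lines and at -0.0664 to 0.0556 with WSC. Not every pair was over 0.1, so the numbers were not taken as pairing, although between the lines each line 17 library correlated best, among the line 6 libraries, with its own number, a hint from the data and not from the design. With a replicate block 1001 genes were higher and 1099 lower, again with 1 and 2 members, and 2259 regions were called, 10 of them of members. *Nefh* had 175, *Mapt* 399 and *Nefm* 435 reads over all MN libraries. When exon body reads were added unaveraged, mean inclusion moved from 12.9 to 33.4% for the *Mtap2* exon, and in *Mapt* from 21.6 to 48.9% for exon 2 beside the junction that skips both inserts, 90.3 to 95.6% for exon 3, 0.653 to 10.98% for exon 6, 0.378 to 7.42% for its 97-nt form, 4.58 to 9.91% for exon 8, 99.2 to 99.7% for exon 10 and 0 to 5.19% for the 97-nt exon after it.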
